A study of Mus musculus with 16 samples.

Results

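Polycomb group proteins silence genes by modifying chromatin, and the 9 genes described here encode parts of their 2 main complexes. The members were the named genes Ezh1, Ezh2, Eed, Bmi1, Cbx2, Cbx7, Cbx8, Phc1 and Phc2, and every array probe assigned to one of them by its RefSeq accession was taken. That gave 13 probes, of which 11 were bright enough to keep, out of 41174 probes on the array and 27522 kept. All 9 genes were among the 23065 genes or unnamed transcripts tested.

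The study sorted early B-lineage cells of wild-type BALB/c mice from 2 sites, to compare fetal with adult B lymphopoiesis. Its 4 groups were fetal liver Fr.B/C, fetal liver Fr.A, bone marrow Fr.B/C and bone marrow Fr.A, with 4 samples each; the labels do not give the gates of the sort. In the Hardy scheme Fr.A holds pre-pro-B cells and Fr.B/C the pro-B cells that follow. A fetal liver sort pooled the livers of a litter at gestation day 16, with an average of 8 embryos, and a bone marrow sort pooled 16 female adult mice, whose age the labels do not give. Each sort yielded one sample of either fraction. From each sample 100 ng of total RNA was amplified and hybridised to an Agilent dual-colour array beside a common reference, pooled RNA of 6 cell lines (P388d, DN3, EL4, J558, RS2 and R1). Values below are log2 ratios of sample over reference. They compare a gene between groups, and they set no gene's level against another's.

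In PRC2, the catalytic subunit Ezh2 or its paralogue Ezh1 methylates a lysine in the tail of histone H3, and Eed binds that mark and stimulates the enzyme. In canonical PRC1, a Cbx protein reads the mark, Bmi1 partners the Ring1 proteins that attach ubiquitin to histone H2A, and the Phc proteins compact chromatin by polymerising. Ezh2 is required for the joining of distal heavy-chain gene segments in pro-B cells, and Bmi1 sustains self-renewal of haematopoietic stem cells by repressing the Cdkn2a locus.

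Probes well above background made up 52.9% to 68.3% of an array, median sample signals lay between 71 and 162 units, and between 0.221% and 0.624% of spots were saturated. Over 22768 genes with complete values, arrays of the same group correlated at r = 0.908 to 0.981 and arrays of different groups at r = 0.616 to 0.848. Within a group, however, arrays 1 and 2 departed from the group mean together, and so did arrays 3 and 4. The correlation of deviations was 0.451 to 0.769 between arrays 1 and 2 in 3 groups and -0.0496 in fetal liver Fr.A, and 0.579 to 0.666 between arrays 3 and 4, while across the 2 sets it was -0.858 to -0.53. Fetal and adult arrays were scanned on different days, so tissue and scan day cannot be told apart.

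The sorted populations carried B-lineage transcripts. Of 14 B-lineage markers with a probe, 13 were well above background on at least 3 arrays in every group. The remaining marker, Pax5, was above it on no array of fetal liver Fr.B/C or of bone marrow Fr.A. In the other groups it was above background on too few arrays to be kept. Markers of some other lineages were detected as widely, with 12 or 13 of 13 myeloid and 8 or 9 of 9 T-lineage markers in each group. NK and hepatocyte markers were detected less widely. In fetal liver Fr.B/C, fetal liver Fr.A, bone marrow Fr.B/C and bone marrow Fr.A these were 5, 6, 6 and 8 of 10 NK markers. For hepatocyte markers they were 3, 3, 2 and 4 of 8. Detection alone therefore does not mark the samples as B-lineage.

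Among the members, 3 PRC1 genes passed the test in fetal liver Fr.B/C, each counted on its brightest probe. Phc1 and Cbx2 were higher there, and Bmi1 lower, both against fetal liver Fr.A and against bone marrow Fr.B/C. The changes were moderate, between 1.36-fold and 1.79-fold. Over all genes, 22.6% passed from Fr.A to Fr.B/C in fetal liver and 28.5% between the sites in Fr.B/C. A second kept Phc1 probe passed against fetal liver Fr.A but not against bone marrow Fr.B/C, and a second, dim Cbx2 probe passed neither test. Cbx7 was lower in fetal liver than in bone marrow at the Fr.A stage, where 29.3% of all genes passed. At the bone marrow step from Fr.A to Fr.B/C no member passed in the main model by its brightest probe, while the second Phc1 probe did. Ezh2, Eed, Phc1 and Phc2 were higher there once the replicate number was a block. Over all 23065 genes, 32.2% passed at that step in the main model, and 9572 genes did with the block. These counts are not read as particular to the members. Ezh1 and Cbx8 passed no test in the main model or with the replicate number as a block.

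Bmi1 and Phc1 moved in opposite directions in fetal liver, and their promoter sequences are shown side by side. Whether these sequences bear on the changes was not tested. Each is the 250 bases before the annotated start, from the RefSeq promoter table (GRCm38.p6), 5′ to 3′ on the gene's strand. Bmi1 lies at chr2:18676768-18677017 on the plus strand and Phc1 at chr6:122340228-122340477 on the minus strand. Capitals mark CACGTG, the E-box bound by MYC-family factors, in the Bmi1 sequence.
Bmi1: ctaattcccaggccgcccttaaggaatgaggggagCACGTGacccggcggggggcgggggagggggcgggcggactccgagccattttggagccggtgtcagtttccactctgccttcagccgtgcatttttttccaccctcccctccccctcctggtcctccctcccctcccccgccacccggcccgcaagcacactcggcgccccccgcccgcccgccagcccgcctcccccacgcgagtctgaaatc
Phc1: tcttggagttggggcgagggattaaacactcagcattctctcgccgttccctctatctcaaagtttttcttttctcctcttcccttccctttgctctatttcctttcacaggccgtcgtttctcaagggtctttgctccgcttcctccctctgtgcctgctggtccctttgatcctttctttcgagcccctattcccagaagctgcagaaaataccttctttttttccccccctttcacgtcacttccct
The Bmi1 window is 70.4% G and C with 21 CpG dinucleotides, and the Phc1 window is 49.6% G and C with 8. Over all 32851 windows of the table the medians are 52.4% and 6. CACGTG, which reads the same on both strands, begins 215 bases before the Bmi1 start and lies in 6.02% of all such windows. Among the 10 windows that matched 8 of the 9 members it was also present in one window each of Cbx8 and Phc2. The E2F-type motifs TTTGGCGC and TTTCCCGC, which do not contain CACGTG or each other and were searched on both strands, lay in 0.417% and 0.895% of all windows and in no window of a member.

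Bmi1 (probe A_52_P39157), the RING partner of Ring1 proteins in canonical PRC1, had its lowest level in fetal liver Fr.B/C. Its log2 ratios were -1.44, -1.53, -1.72 and -1.91 there, against -0.68, -0.96, -0.76 and -0.85 in fetal liver Fr.A. They were -0.98, -1.18, -1.39 and -1.29 in bone marrow Fr.B/C, against -0.80, -0.99, -1.06 and -1.19 in bone marrow Fr.A. Every fetal liver Fr.B/C array lay below every array of the other 3 groups. Bmi1 was 1.79-fold lower in Fr.B/C than in Fr.A of fetal liver, a log2 difference of -0.84 ± 0.11 (SE, adjusted p = 3.92e-05, limma). The same step in bone marrow was -0.20 ± 0.11 (adjusted p = 0.198), with overlapping arrays.

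The fetal and adult steps of Bmi1 differed, by -0.64 ± 0.16 (adjusted p = 0.0216). Between the sites, Bmi1 was lower in fetal liver than in bone marrow at the Fr.B/C stage by -0.45 ± 0.11 (adjusted p = 0.00718). At the Fr.A stage the difference was 0.20 ± 0.11 (adjusted p = 0.217), with overlapping arrays. Leaving out 1 array lifted the adjusted p of the difference between the steps to at most 0.0517, and the call was lost without array 3 or 4 of fetal liver Fr.B/C, array 1 of bone marrow Fr.B/C or array 4 of bone marrow Fr.A. That difference also did not pass with the arrays of each set averaged (adjusted p = 0.422). It was lost as well with median centring in place of loess (adjusted p = 0.305) and with scaling between arrays (adjusted p = 0.13). The second Bmi1 probe was well above background on no array and gave no value to compare.

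**Figure D1:**
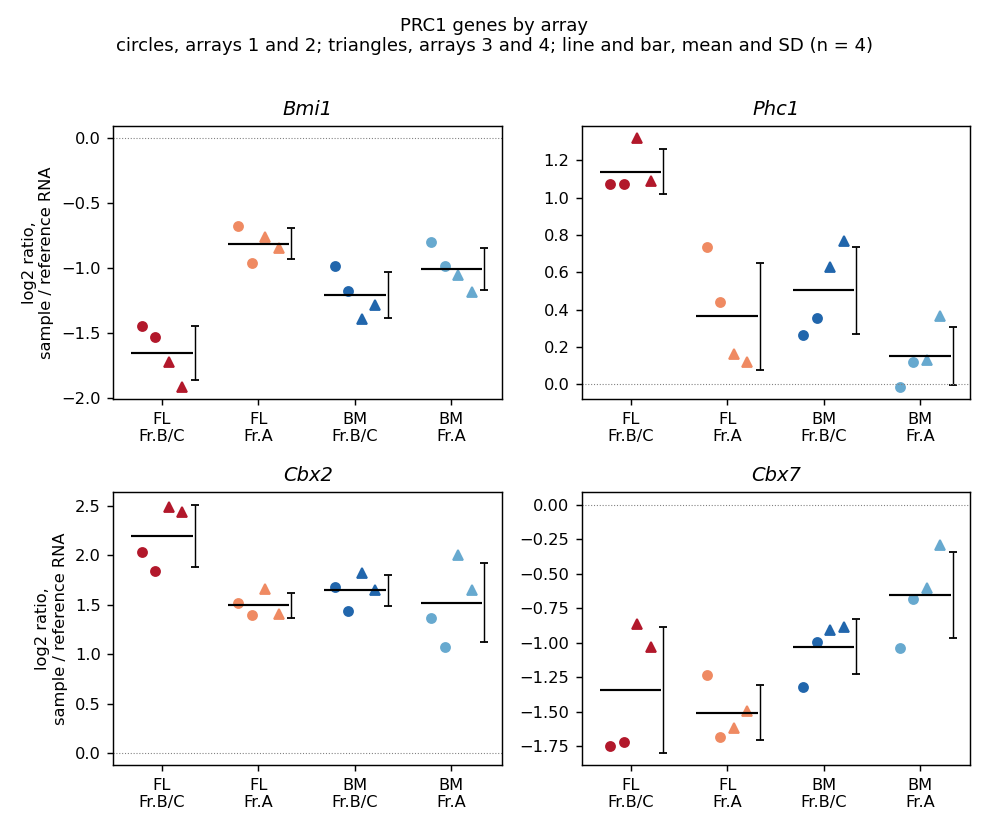
Log2 ratio of sample over reference RNA (vertical axes) of Bmi1, Phc1, Cbx2 and Cbx7 in fetal liver (FL) and bone marrow (BM) fractions, 1 point per array (circles, arrays 1 and 2; triangles, arrays 3 and 4), with the mean as a line and the SD as a bar (n = 4). Fetal liver Fr.B/C holds the lowest Bmi1 values, from -1.91 to -1.44, and the highest Phc1 values, from 1.07 to 1.32.

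Phc1 (probe A_52_P243553), a polyhomeotic subunit of PRC1, showed the opposite pattern. Its log2 ratios were 1.08, 1.07, 1.32 and 1.09 in fetal liver Fr.B/C, against 0.74, 0.44, 0.16 and 0.12 in fetal liver Fr.A. They were 0.27, 0.35, 0.63 and 0.77 in bone marrow Fr.B/C, against -0.01, 0.12, 0.13 and 0.37 in bone marrow Fr.A. The 4 fetal liver Fr.B/C arrays stood above all 12 others. Phc1 was 1.71-fold higher in Fr.B/C than in Fr.A of fetal liver (0.77 ± 0.14, adjusted p = 0.000891) and 1.55-fold higher in fetal liver than in bone marrow at the Fr.B/C stage (0.64 ± 0.14, adjusted p = 0.00373).

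In bone marrow the Phc1 step was 0.35 ± 0.14 (adjusted p = 0.0762), and blocking on the replicate number brought it under the threshold (adjusted p = 0.0265). The fetal step exceeded it by 0.42 ± 0.20, which did not pass (adjusted p = 0.257). A second kept Phc1 probe, A_51_P433430, rose in Fr.B/C by 0.39 ± 0.10 in fetal liver (adjusted p = 0.00905) and by 0.35 ± 0.10 in bone marrow (adjusted p = 0.0125). Its fetal-to-adult difference at the Fr.B/C stage was 0.20 ± 0.10 (adjusted p = 0.156), so the 2 probes gave different calls there. The remaining Phc1 probe was well above background on no array.

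Cbx2 (probe A_52_P13730), a chromodomain reader in PRC1, followed Phc1. Its log2 ratios were 2.03, 1.84, 2.48 and 2.43 in fetal liver Fr.B/C, against 1.52, 1.39, 1.65 and 1.40 in fetal liver Fr.A. They were 1.68, 1.44, 1.82 and 1.64 in bone marrow Fr.B/C, against 1.36, 1.07, 2.00 and 1.65 in bone marrow Fr.A. The fetal liver Fr.B/C arrays lay above all fetal liver Fr.A and all bone marrow Fr.B/C arrays, and overlapped bone marrow Fr.A, which had the widest spread.

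Cbx2 was 1.63-fold higher in Fr.B/C than in Fr.A of fetal liver (0.71 ± 0.16, adjusted p = 0.00488) and 1.47-fold higher in fetal liver than in bone marrow at the Fr.B/C stage (0.55 ± 0.16, adjusted p = 0.0193). The call between the sites was lost without array 3 or 4 of fetal liver Fr.B/C or array 1 or 2 of bone marrow Fr.B/C, with an adjusted p of up to 0.0774. The bone marrow step was 0.12 ± 0.16 (adjusted p = 0.627). The fetal step was larger by 0.58 ± 0.23, which missed the threshold (adjusted p = 0.159) and passed with the replicate block (adjusted p = 0.0297). A second Cbx2 probe, A_51_P300245, was dim, well above background on 1, 2, 0 and 3 arrays of fetal liver Fr.B/C, fetal liver Fr.A, bone marrow Fr.B/C and bone marrow Fr.A, and its differences of -0.10 to 0.12 passed no test.

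Cbx2 and Cbx8 are neighbours on chromosome 11. Cbx8 (probe A_52_P229997), a chromodomain reader as well, lay between 0.36 and 1.32 in fetal liver Fr.B/C, against 0.07 to 1.07 in fetal liver Fr.A. It lay between 0.18 and 0.82 in bone marrow Fr.B/C, against 0.25 to 0.91 in bone marrow Fr.A. All 4 groups overlapped, its largest difference was 0.30 ± 0.24, and no adjusted p was below 0.386. A cDNA-clone probe that the array describes as chromobox homolog 8, but that no RefSeq accession ties to the gene, was lower in Fr.B/C than in Fr.A of bone marrow by -0.96 ± 0.20 (adjusted p = 0.00149) and by -0.56 ± 0.20 in fetal liver (adjusted p = 0.0554). It disagreed with the Cbx8 probe and was not counted.

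Cbx7 (probe A_52_P263774), a chromodomain reader that also represses the Cdkn2a locus, was lower in fetal liver at the earlier stage. Its log2 ratios were -1.23, -1.68, -1.62 and -1.49 in fetal liver Fr.A, against -1.04, -0.68, -0.60 and -0.29 in bone marrow Fr.A. The arrays did not overlap, and Cbx7 was 1.80-fold lower in fetal liver (-0.85 ± 0.20, adjusted p = 0.00466). In Fr.B/C it was -1.75, -1.71, -0.87 and -1.03 in fetal liver, against -1.32, -0.996, -0.91 and -0.89 in bone marrow, a difference of -0.31 ± 0.20 (adjusted p = 0.274). Arrays 1 and 2 of fetal liver Fr.B/C were the lowest of these 8 while array 4 fell among the bone marrow values and array 3 was the highest. The difference in Fr.B/C was -0.57 within arrays 1 and 2 and -0.05 within arrays 3 and 4.

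Phc2 (probe A_51_P457388), the other polyhomeotic member, was 0.44, 0.75, 0.40 and 0.81 in fetal liver Fr.B/C, against 0.15, 0.82, 0.05 and 0.28 in fetal liver Fr.A. It was 0.93, 0.95, 0.86 and 0.91 in bone marrow Fr.B/C, against 0.50, 0.41, 0.80 and 0.65 in bone marrow Fr.A. The bone marrow Fr.B/C arrays agreed closely and lay above every fetal liver Fr.B/C array and every bone marrow Fr.A array. The bone marrow step was 0.32 ± 0.13 (adjusted p = 0.0809) and passed with the replicate block (adjusted p = 0.0247). The difference between fetal liver and bone marrow in Fr.B/C was -0.31 ± 0.13 (adjusted p = 0.0965). Array 2 of fetal liver Fr.A stood at 0.82. Without it the fetal liver step passed (adjusted p = 0.0135), as did the differences between the sites at the earlier stage (adjusted p = 0.0132) and the later one (adjusted p = 0.0337) and the bone marrow step (adjusted p = 0.0257).

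Ezh2 (probe A_51_P248067), the catalytic subunit of PRC2, differed between the 2 sets of arrays in every group. Its log2 ratios were 0.54, 0.50, -0.22 and -0.10 in fetal liver Fr.B/C, against 0.39, 0.28, -0.20 and -0.26 in fetal liver Fr.A. They were 0.54, 0.65, 0.16 and 0.33 in bone marrow Fr.B/C, against 0.13, 0.36, -0.91 and -0.76 in bone marrow Fr.A. In each group arrays 1 and 2 exceeded arrays 3 and 4, by 0.35 to 1.08. The reference channel averaged 11.32 ± 0.07 on arrays 1 and 2 and 12.05 ± 0.07 on arrays 3 and 4 (log2 normalized signal, SD, n = 8 each), while the sample channel averaged 11.75 ± 0.20 and 11.81 ± 0.46.

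In bone marrow Ezh2 was higher in Fr.B/C than in Fr.A by 0.72 ± 0.27, which just missed the threshold (adjusted p = 0.0554). Blocked on the replicate number, the same difference had an SE of 0.13 and passed (adjusted p = 0.00057). It was 0.35 within arrays 1 and 2 and 1.08 within arrays 3 and 4, positive in both, and 0.30, 1.08 and 1.09 on the 3 scan days that held both fractions. In fetal liver the step was 0.12 ± 0.27 (adjusted p = 0.814), at 0.18 and 0.07 within the sets. The fetal step was smaller than the bone marrow step by -0.59 ± 0.38 (adjusted p = 0.424), which passed with the replicate block (adjusted p = 0.0412). Between fetal liver and bone marrow Ezh2 differed by 0.35 ± 0.27 in Fr.A (adjusted p = 0.378) and by -0.24 ± 0.27 in Fr.B/C (adjusted p = 0.553).

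Eed (probe A_51_P238643), which binds the methylated lysine, shared the set pattern of Ezh2. Its log2 ratios were 0.10, -0.18, -0.84 and -1.09 in fetal liver Fr.B/C, against -0.07, -0.57, -0.21 and -0.42 in fetal liver Fr.A. They were 0.13, 0.06, -0.62 and -0.86 in bone marrow Fr.B/C, against -0.19, -0.23, -1.34 and -1.43 in bone marrow Fr.A. Arrays 3 and 4 were the lower pair in 3 groups, and in fetal liver Fr.A the means of the pairs were nearly equal. The reference channel of Eed averaged 8.33 ± 0.18 on arrays 1 and 2 and 9.23 ± 0.11 on arrays 3 and 4, against sample means of 8.21 ± 0.22 and 8.38 ± 0.46 (n = 8 each). The part of the reference RNA in these set differences was not tested.

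The bone marrow step of Eed was 0.48 ± 0.32 (adjusted p = 0.295) and passed with the replicate block (adjusted p = 0.0282), at 0.31 and 0.65 within the sets. The fetal liver step was -0.19 ± 0.32 (adjusted p = 0.758), at 0.28 within arrays 1 and 2 and -0.65 within arrays 3 and 4. The difference between fetal liver and bone marrow in Fr.A was 0.48 ± 0.32 (adjusted p = 0.299), at -0.11 and 1.07 within the sets, which differ in sign.

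**Figure D2:**
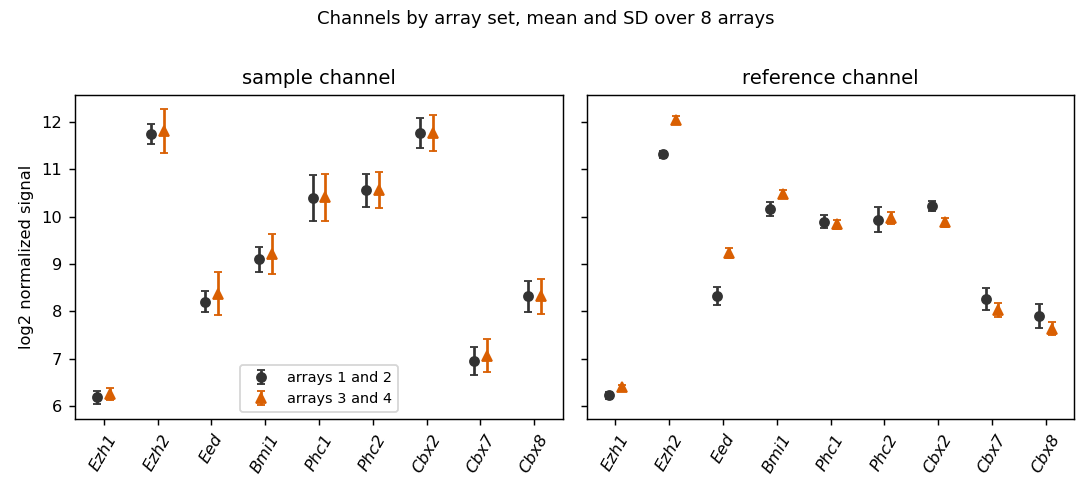
Log2 normalized signal of the sample channel (left) and the reference channel (right) for the 9 members, as mean and SD over the 8 arrays numbered 1 or 2 (circles) and the 8 numbered 3 or 4 (triangles). Ezh2 and Eed are brighter in the reference channel of arrays 3 and 4, at 12.05 and 9.23, than of arrays 1 and 2, at 11.32 and 8.33.

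Ezh1 (probe A_52_P237871), the second PRC2 methyltransferase, was close to the detection limit. It was well above background on 0 arrays of fetal liver Fr.B/C, 1 of fetal liver Fr.A, 4 of bone marrow Fr.B/C and 4 of bone marrow Fr.A. Its log2 ratios ranged from -0.21 to -0.07 in fetal liver Fr.B/C and from -0.40 to 0.10 in fetal liver Fr.A. In bone marrow they ranged from -0.14 to 0.12 in Fr.B/C and from -0.15 to 0.20 in Fr.A. The difference between fetal liver and bone marrow in Fr.B/C was -0.14 ± 0.10 (95% interval -0.35 to 0.08, adjusted p = 0.355). With the scanner's processed signals Ezh1 was lower in fetal liver by -0.86 ± 0.28 at either stage (adjusted p = 0.0316 at the Fr.A stage and 0.0289 at the Fr.B/C stage), and the cause of that change was not tested.

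**Figure D3:**
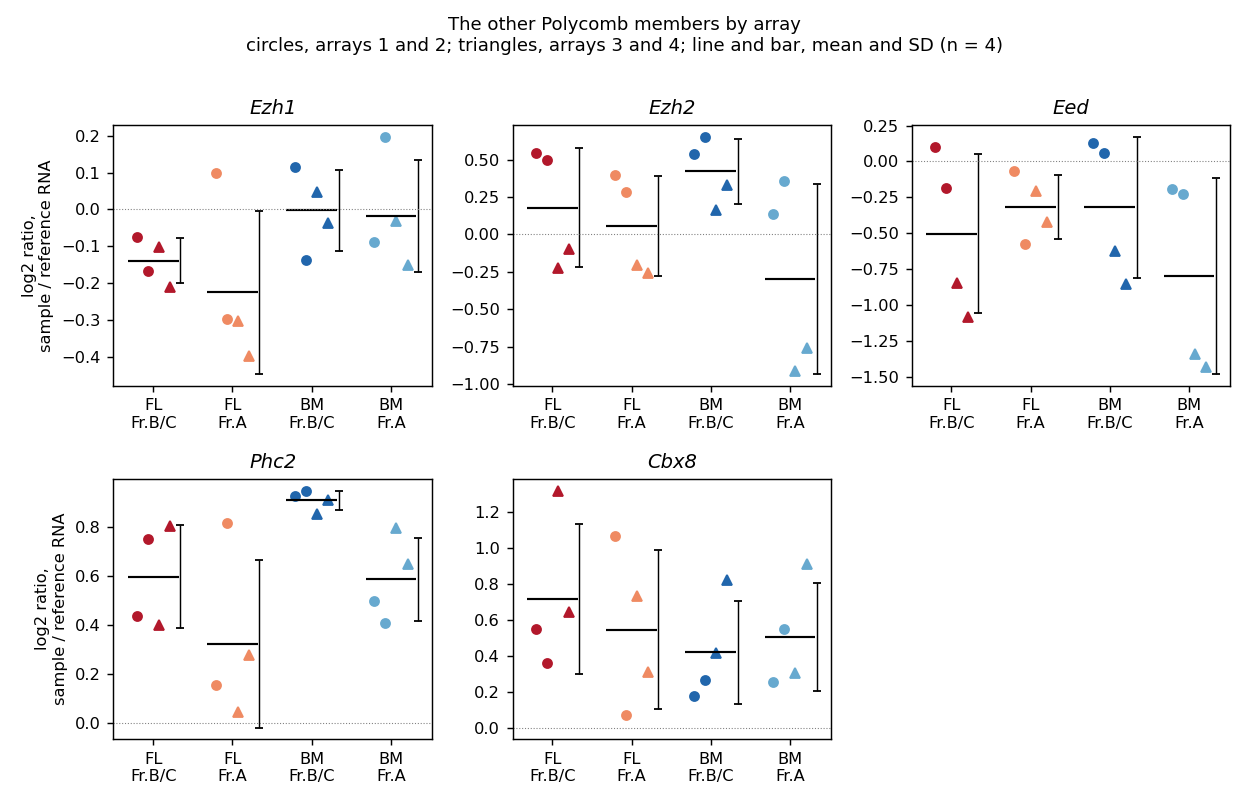
Log2 ratio of sample over reference RNA (vertical axes) of Ezh1, Ezh2, Eed, Phc2 and Cbx8 in the 4 groups, 1 point per array (circles, arrays 1 and 2; triangles, arrays 3 and 4), with mean and SD (n = 4). For Ezh2 the circles lie above the triangles in every group, by 0.35 to 1.08 between their means.

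Counted over all 9 members, fetal liver differed from bone marrow for 1 gene in Fr.A, Cbx7, where 29.3% of all genes tested passed. In Fr.B/C it differed for 3, Phc1, Cbx2 and Bmi1, against a background of 28.5%. The step to Fr.B/C passed for 3 members in fetal liver, Bmi1, Phc1 and Cbx2 (background 22.6%), and for 0 in bone marrow (background 32.2%), counted on the brightest probe of each gene, while the second Phc1 probe passed there (adjusted p = 0.0125). In bone marrow 3 members, Ezh2, Phc1 and Phc2, had an unadjusted p under 0.05, at 0.0183, 0.0271 and 0.0292, and 4 passed with the replicate block. The difference between the steps passed for Bmi1 alone of the 9 members (background 7.37%). The median difference of the members was 0.04 in Fr.A, -0.18 in Fr.B/C, 0.12 for the bone marrow step and 0.17 for the fetal liver step, against -0.02, 0.01, -0.04 and 0.00 over all genes. Arrays did not overlap for 1 of the 9 members between the sites in Fr.A (26.1% of all genes), 4 in Fr.B/C (29.5%), 1 at the bone marrow step (29.5%) and 3 at the fetal liver step (24.1%). None of these counts is read as particular to the members.

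**Figure D4:**
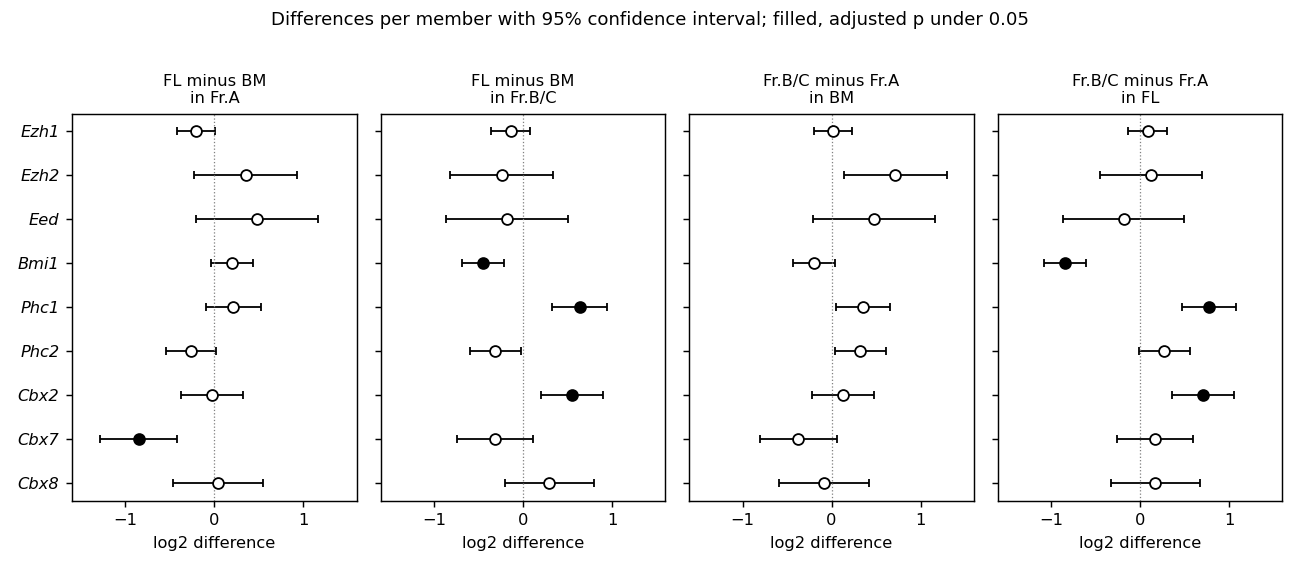
Log2 differences of the 9 members (horizontal axes) with 95% confidence intervals in the 4 comparisons, filled where the adjusted p was under 0.05. The filled points are Cbx7 in Fr.A, Bmi1, Phc1 and Cbx2 between fetal liver and bone marrow in Fr.B/C, and the same 3 genes for the step within fetal liver.

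A stricter count treats arrays 1 and 2, and arrays 3 and 4, of a group as 1 value each. The log2 differences stayed as they were, and of the calls above only the Bmi1 step in fetal liver passed. Phc1 then had an adjusted p of 0.0554 for that step and Cbx7 one of 0.0876 in Fr.A. Whether arrays of a set share RNA or only handling was not tested. Within either set, the step in fetal liver was negative for Bmi1 (-0.67 and -1.02) and positive for Phc1 (0.49 and 1.06) and Cbx2 (0.48 and 0.93).

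Some members moved together across the 16 arrays once the dye effect was removed. These correlations are a description, since the arrays share 4 groups and the 2 sets. Bmi1 ran against Cbx2 (r = -0.898) and Phc1 (r = -0.817), Cbx2 ran with Phc1 (r = 0.771), and Ezh2 ran with Eed (r = 0.854). Among 12198 genes with a plain symbol, the 3 whose pattern was most like that of Bmi1 were Arhgef6, Celf2 and Gcc2 (r = 0.947 to 0.952). For Phc1 they were Bves, Rab23 and Mtss1 (r = 0.948 to 0.952), and for Cbx2 they were Hnrnpl, Fam174c and Ift27 (r = 0.934 to 0.95). For Ezh2 they were Trappc11, Nde1 and Atp5a1 (r = 0.95 to 0.959), and for Eed they were Dld, Tmx1 and Ccp110 (r = 0.965 to 0.983). For Cbx7 they were Zbtb11os1, Kat2b and Ccnq (r = 0.917 to 0.929), for Cbx8 Elmo2, Leo1 and Cdk2 (r = 0.914 to 0.929), for Phc2 Traf7, Flii and Ints1 (r = 0.946 to 0.96), and for Ezh1 Ptpdc1, Plekhg6 and Fhl4 (r = 0.806 to 0.854).

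Of 9 other PRC2 genes measured, 2 rose and 3 fell at the fetal liver step, and 1 rose and 2 fell at the bone marrow step, or 2 and 3 with the replicate block. Over all genes 22.6% passed at the fetal liver step and 32.2% at the bone marrow step, a share close to that of the list in bone marrow. With the array sets averaged, 1 rose and 1 fell in fetal liver and 0 rose and 2 fell in bone marrow. The list's median differences were 0.03 and -0.05, against 0.00 and -0.04 over all genes. Jarid2, an accessory subunit that helps recruit PRC2, was lower in Fr.B/C by -0.94 ± 0.15 in fetal liver (adjusted p = 0.000242) and by -1.43 ± 0.15 in bone marrow (adjusted p = 2.55e-06). Epop, another accessory subunit, was lower by -0.84 ± 0.14 and -1.23 ± 0.14 (adjusted p = 0.000435 and 7.55e-06). Phf19, a Polycomb-like subunit, was higher by 0.73 ± 0.11 and 0.30 ± 0.11 (adjusted p = 0.000106 and 0.0438).

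Mtf2, a Polycomb-like subunit as well, passed in the comparisons in which Bmi1 did. It was lower in Fr.B/C than in Fr.A of fetal liver by -0.58 ± 0.10 (adjusted p = 0.000617) and lower in fetal liver than in bone marrow at the Fr.B/C stage by -0.50 ± 0.10 (adjusted p = 0.0018), and its steps differed by -0.50 ± 0.15 (adjusted p = 0.0485). In Fr.A, 2 of the 9 were lower in fetal liver, Jarid2 by -0.77 ± 0.15 (adjusted p = 0.00114) and the histone-binding Rbbp4 by -0.45 ± 0.14 (adjusted p = 0.0274). Over all genes 29.3% passed there. With the array sets averaged, 0 of the 9 passed between the sites at either stage, and 0 in the difference between the steps.

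Of 17 other PRC1 genes measured, 4 were lower and 0 higher in fetal liver Fr.A than in bone marrow Fr.A, and 4 were lower and 2 higher in Fr.B/C. The shares over all genes were 29.3% and 28.5%, so the list lay near the background, and its medians were -0.01 and -0.05, against -0.02 and 0.01 over all genes. With the array sets averaged, 1 gene of the list was lower and 0 were higher at either stage. Pcgf5, a paralogue of Bmi1 in variant PRC1, was lower in fetal liver by -0.96 ± 0.12 in Fr.A (adjusted p = 2.19e-05) and by -0.94 ± 0.12 in Fr.B/C (adjusted p = 3.06e-05). Bcor, a scaffold of another variant complex, was lower by -0.54 ± 0.10 and -0.58 ± 0.10 (adjusted p = 0.000827 and 0.000558). At the bone marrow step 2 rose and 2 fell, among them Yaf2, a Ring1-binding subunit, at 0.74 ± 0.12 (adjusted p = 0.00022). At the fetal liver step 2 rose, among them Yaf2 (0.48 ± 0.12, adjusted p = 0.00901), and with the replicate block 2 more fell. With the array sets averaged, 1 rose and 0 fell at either step.

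Of 5 erasers of the histone H3 methyl and H2A ubiquitin marks, the demethylase Kdm6a was lower in fetal liver Fr.B/C than in bone marrow Fr.B/C by -0.64 ± 0.19 (adjusted p = 0.0208). Usp16, an H2A deubiquitinase, was lower at the fetal liver step by -0.33 ± 0.10 (adjusted p = 0.032). At the bone marrow step 0 of the 5 passed, and 2 did with the replicate block. Of 6 PR-DUB and DNA-binding Polycomb genes with a probe, Sfmbt1 alone passed, higher by 0.41 ± 0.10 at the fetal liver step (adjusted p = 0.0056) and by 0.27 ± 0.10 in fetal liver Fr.B/C against bone marrow Fr.B/C (adjusted p = 0.047). Of 11 Trithorax group genes, which maintain active transcription, 3 rose at the fetal liver step, and 3 rose and 1 fell at the bone marrow step, against 22.6% and 32.2% of all genes. Between the sites 1 was higher and 1 lower in fetal liver at the Fr.A stage, and 2 were higher and 0 lower at the Fr.B/C stage, against 29.3% and 28.5% of all genes. With the array sets averaged, 1 rose at the bone marrow step and 0 passed at the fetal liver step, and neither the erasers nor the PR-DUB and DNA-binding genes had a call in any comparison. Smarca4, the ATPase of the BAF remodeller, rose in both, by 0.92 ± 0.25 and 0.86 ± 0.25 (adjusted p = 0.0151 and 0.0163).

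Of 17 genes known as Polycomb targets in other cells, 13 were measured. Cdkn2a was not among them, being well above background on no array of any group. At the fetal liver step 1 rose and 5 fell, and at the bone marrow step 2 rose and 5 fell, or 0 and 5, and 1 and 4, with the array sets averaged. Over all 23065 genes 22.6% and 32.2% passed at these steps, and 1858 and 3427 genes did with the array sets averaged. The homeobox gene Hoxa7 fell by 2.01 ± 0.15 in fetal liver (adjusted p = 1.08e-07) and by 1.27 ± 0.15 in bone marrow (adjusted p = 1.14e-05). Hoxa9, which acts in stem and progenitor cells, fell by 1.33 ± 0.12 and 1.45 ± 0.12 (adjusted p = 8.8e-07 and 2.41e-07), and Gata3, a T-lineage factor, fell by 1.13 ± 0.13 and 1.96 ± 0.13 (adjusted p = 8.76e-06 and 1.66e-08). Cdkn1c, an imprinted cell-cycle inhibitor, was higher in fetal liver than in bone marrow by 1.59 ± 0.10 in Fr.A (adjusted p = 1.97e-08) and by 1.57 ± 0.10 in Fr.B/C (adjusted p = 1.87e-08).

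Cell-cycle genes and markers of other cells moved with these comparisons. Of 24 proliferation genes measured, 10 rose and 1 fell at the fetal liver step, and 17 rose and 0 fell at the bone marrow step, where 22.6% and 32.2% of all genes passed. With the array sets averaged, 5 and 14 rose and 0 fell. Between the sites, 12 were higher in fetal liver at the Fr.A stage and 8 at the Fr.B/C stage, where 29.3% and 28.5% of all genes passed. Ube2c, a mitotic ubiquitin-conjugating enzyme, rose at the bone marrow step by 1.11 ± 0.11 (adjusted p = 1.42e-06). Array means of the 24 genes ran from 0.29 to 0.46 in fetal liver Fr.B/C and from -0.05 to 0.06 in fetal liver Fr.A, against 0.08 to 0.17 in bone marrow Fr.B/C and -0.51 to -0.30 in bone marrow Fr.A.

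Erythroid markers were higher in fetal liver for 10 of 11 genes at either stage, with array means of 1.44 to 2.81 in fetal liver Fr.B/C and 1.47 to 3.00 in fetal liver Fr.A, against -0.08 to 0.39 in bone marrow Fr.B/C and 0.40 to 0.56 in bone marrow Fr.A. In bone marrow Fr.B/C, 2 of the 12 erythroid markers with a probe were above background on no array. Of 9 plasmacytoid dendritic cell markers, 7 fell at the fetal liver step and 6 at the bone marrow step, and Siglech was above background on no Fr.B/C array of either site. Their array means were -0.87 to -0.69 in fetal liver Fr.B/C and 0.79 to 0.95 in fetal liver Fr.A. Of 13 B-lineage markers measured, 7 had lower levels in Fr.B/C of fetal liver than of bone marrow, with array means of 0.42 to 0.59 in fetal liver and 1.6 to 1.96 in bone marrow. These means include Dntt, which differed by -9.03 ± 0.42, while the median difference of the 13 was -0.39, against 0.01 over all genes. At the steps, 8 of the 13 rose and 2 fell in fetal liver, and 9 rose and 1 fell in bone marrow. Of 13 myeloid markers, 6 had lower levels in Fr.B/C of fetal liver, with array means of 1.63 to 2.53 in fetal liver and 3.02 to 3.64 in bone marrow, and Csf3r was above background on no fetal liver Fr.B/C array. Of these 13, 6 fell at the fetal liver step and 3 at the bone marrow step. Among 8 NK markers, 2 fell at the fetal liver step and 7 at the bone marrow step. Of 9 T-lineage markers, 4 fell and 1 rose at the fetal liver step, and 3 fell and 0 rose at the bone marrow step. Among 4 hepatocyte markers measured, 2 fell at the fetal liver step and 3 at the bone marrow step. The part of other cells, or of proliferation, in the values of the 9 members was not tested. In bulk samples, fewer cells of a type and less RNA per cell cannot be told apart.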

How the data were processed

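RNA of 16 sorted samples was measured on 2-colour Agilent arrays, per the labels. The deposited scanner files (Feature Extraction 8.5.1.1) hold mean and background signals as intensity, and processed signals, per the file headers. A second deposited file is the authors' table of log2 ratios, whose method the sources used here do not give and whose columns have medians of -0.00731 to 0.0202. Against the ratios of this re-analysis, its columns had r = 0.951 to 0.965 over probes. The submitters' processing notes name limma.

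Background was corrected with normexp (offset 50) and each array normalized by loess (4 iterations, control spots at weight 0). Ratios were turned to sample over reference, with the sample in Cy5 on 2 arrays and Cy3 on 2 arrays of each group. Outlier spots (0.065%) were left out. A probe was kept if well above background on at least 3 of 4 arrays of any group and usable on at least 12. The brightest kept probe stood for a gene, and 12940 of the 23065 features were named, most by RefSeq accession. limma 3.58.1 (R 4.3.3) fitted group means with a dye term over the 16 arrays, leaving 11 residual degrees of freedom. P-values were adjusted by Benjamini-Hochberg over all features, and 0.05 was the threshold. The procedure was tested on simulated data.

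Samples of the same number within a site deviated together (r = 0.423 to 0.519 in bone marrow and 0.249 to 0.38 in fetal liver). They also share an array set, so these correlations cannot tell pairing by sort from the set effect. The labels say that each sort gave both fractions, and the number was taken as the sort without a test. Across sites, r was 0.28 to 0.483 in Fr.B/C and -0.259 to 0.155 in Fr.A, from different animals. The number as a block is given beside a result where it changed the call. Precision is limited by how few arrays each group has.

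The named genes were all 9 members with all their probes, up to 4 genes per comparison from each other list with the smallest adjusted p, and the 3 genes most like each member. Pax5, Siglech, Csf3r and Cdkn2a were named after their values were seen, as listed genes above background on no array of a group. The members and lists were chosen with earlier results of these data known. The other settings are in the closing section. Array coordinates were not used, since no build is named with them. Some genes of the lists are counted but not reported by name here.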

Additional observations from a re-analysis of the deposited data

Results flagged for a closer look

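Phc1 in fetal liver Fr.B/C had one array apart from the rest. Array 3 stood at 1.32 and its nearest neighbour at 1.09, a gap that made up 0.92 of the group's range, above Dixon's critical value of 0.829 for 4 samples. Of 36 groups of member values examined this was the only one, and chance alone gives about 5% of such groups. The Bmi1 step from Fr.A to Fr.B/C differed between the sites, with a fetal liver step minus bone marrow step of -0.64 ± 0.16 on the log2 scale (adjusted p = 0.0216, limma), with the step negative in both sets of arrays of both sites.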

How the results depend on the processing

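No member reversed a called difference under any setting. Among uncalled values, 8 took the other sign under another setting. No filter on brightness, all kept probes fitted separately, and trended and robust empirical Bayes changed no member's call. Settings that added or lost calls are given as members called for Fr.A, Fr.B/C, the bone marrow step, the fetal liver step and the interaction (1, 3, 0, 3 and 1 in the main model). The scanner's processed signals called 2 members in Fr.A (Ezh1 at 0.0316), and the deposited table added Ezh1 in Fr.B/C (-0.66, adjusted p = 0.0486). Processed signals gave 1127 interaction genes, against 1700.

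With median centring 4311 genes passed in Fr.A, 4356 at the bone marrow step, 2790 at the fetal liver step and 450 in the interaction, with 0 members there. It lowered the share of higher calls from 41.4% to 22.4% in Fr.A, from 48.5% to 20.0% in Fr.B/C and from 44.1% to 31.5% at the fetal liver step. Cbx2 (0.44, adjusted p = 0.24) and Phc1 (0.46, adjusted p = 0.156) were lost in Fr.B/C, the Bmi1 interaction was lost (adjusted p = 0.305), and Cbx7 gained in Fr.B/C (-0.60, adjusted p = 0.0202). Scaling between arrays gave 993 interaction genes and 0 members there, 1 member at the bone marrow step (Phc2, adjusted p = 0.0417), and lost Cbx2 in Fr.B/C (adjusted p = 0.0732).

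The replicate block called 2 members in Fr.A (Ezh2, adjusted p = 0.0403, where the numbers do not pair samples), 4 at the bone marrow step and 3 in the interaction, with 3761 interaction genes; it changed no other call of a member. Array sets averaged left 2540 genes in Fr.A, 2000 in Fr.B/C, 3427 and 1858 at the bone marrow and fetal liver steps and 45 in the interaction, with 0, 0, 0, 1 and 0 members, from fewer values. Set as a random block (correlation 0.321) called 3 members at the bone marrow step and 2 in the interaction, with 3244 genes; scan day as a random block (correlation 0.306) 2 and 2, with 3120 genes; scan day as a fixed block 3 and 4, with 3448 genes. Without the dye term 1 member was called at the bone marrow step (Ezh2, adjusted p = 0.0464). Set as a term, chosen after seeing the data, called 3 members in Fr.A, 2 at the bone marrow step and 3 in the interaction, with 3106 genes.

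Leaving out 1 array at a time gave 5600 to 6736 genes in Fr.A, 5125 to 6845 in Fr.B/C, 6412 to 7666 at the bone marrow step, 4243 to 5412 at the fetal liver step and 1221 to 1764 in the interaction. Members called ranged from 1 to 2, 2 to 4, 0 to 1, 3 to 4 and 0 to 1. Ezh2 passed at the bone marrow step without array 1 or 2 of bone marrow Fr.A, Phc1 there without array 4 of bone marrow Fr.A, array 1 of bone marrow Fr.B/C or array 1 of fetal liver Fr.A, Phc2 there also without array 3 of bone marrow Fr.A, and Ezh1 in Fr.A without array 1 of fetal liver Fr.A (adjusted p = 0.0239). The cause of these changes was not tested. Ezh1 was well above background on few fetal liver arrays.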
